A study of Danio rerio with 20 samples.

Results

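Genes of red blood cells were followed through bulk RNA of zebrafish leukemias: hbaa1, hbba1, hbba2, alas2, gata1a, slc4a1a, klf1 and tal1. They were chosen by name, as genes whose messages report how much erythroid RNA a leukemia sample carries, and symbols were matched to Ensembl identifiers without regard to case. Of these 8 members, 5 were matched among the 32105 genes of the count table: hbaa1 (ENSDARG00000097011), alas2 (ENSDARG00000038643), gata1a (ENSDARG00000013477), klf1 (ENSDARG00000017400) and tal1, listed as TAL1 (ENSDARG00000019930). The symbols hbba1 and hbba2 matched no identifier, and slc4a1a could be reached only through SLC4A1, a symbol shared by 2 identifiers (ENSDARG00000012881 and ENSDARG00000024560). Both SLC4A1 rows are therefore given by identifier, and 5 rows named HBE1, a human-style symbol for beta-type globin, are given beside hbaa1 without assigning any of them to hbba1 or hbba2.

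The 20 libraries were made from polyA RNA of leukemia cell pellets, cell type blood, in fish of the CG1 strain. They came from 11 tumors: 8 tumors with high self-renewal capacity (8.4.1.1.1, 14.1.1.1, 4.3.1, 8.3, 2.1, 15.2, 13.1.1 and 7.2.1; 14 libraries) and 3 tumors with low self-renewal capacity (9.2, 10.2 and 12.2; 6 libraries). The series' text counts 6 high and 5 low tumors, and the sample labels, which give 8 and 3, were followed here. An A and a B library were made of 9 tumors, and 8.4.1.1.1 and 14.1.1.1 had 1 each. The labels name no driving transgene and no age, do not tell whether cells were sorted or red cells lysed and whether each tumor had a fish of its own, so p-values measure only the spread between these tumors. The titles 8.3 and 8.4.1.1.1 share a first number. Libraries held 6015050 to 16951341 counts, and tumors, with their libraries summed, 11573276 to 32466048. As a check of the blood label, summed T-cell markers stood at 6994 to 13617 CPM in high tumors and 1063 to 2616 CPM in low tumors, and summed B-cell markers at 7.07 to 63.1 CPM in high tumors and 406 to 1161 CPM in low tumors. The T-cell list includes RAG1 and RAG2, which averaged 915 and 585 CPM in low tumors and 4236 and 454 CPM in high tumors. On average they make up much of the T-cell sum of low tumors. Low tumor 12.2 also held 266 CPM of lck and 79.8 CPM of cd8b. These were the highest levels of low tumors and lay below the lowest of high tumors (503 and 192 CPM). Tumor 12.2 had the lowest ighm and blnk of low tumors, 1.23 and 1.04 CPM, within the range of high tumors. PAX5 stood at 115 CPM or more in every low tumor. For neither the T-cell nor the B-cell sum did the ranges of high and low tumors overlap. In every comparison of high with low tumors below, self-renewal capacity therefore cannot be told apart from T-cell or B-cell lineage.

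Red cells of fish keep their nuclei, and maturing erythroid cells devote much of their RNA to alpha- and beta-type globin, the protein chains of hemoglobin. Alas2 makes the first heme precursor in erythroid cells, slc4a1a encodes band 3, the anion exchanger of the red cell membrane, and gata1a, klf1 and tal1 encode transcription factors that switch on erythroid genes. Tal1 and gata1a also act in stem cells and in thrombocytes, the platelets of fish, so these genes are not specific to red cells.

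Counted globin reads were few in every tumor and differed widely between them. The counts of hbaa1 and the HBE1 rows together made up 73.7 of every 1000000 counts in high tumor 13.1.1, here called 73.7 unscaled CPM (Wilson 95% interval 70.1 to 77.5). This was the highest value and is 0.00737% of that tumor's counts. High tumors 2.1, 4.3.1 and 8.4.1.1.1 followed with 27.1, 18.9 and 16.6 unscaled CPM, 7.2.1 and 8.3 held 1.85 and 0.554, and 14.1.1.1 and 15.2 held none. Among low tumors, 12.2 held 53.4 unscaled CPM (49.99 to 57.1), 9.2 held 2.81 and 10.2 held 1.39. In all, 5 tumors, 4 high and 1 low, lay above 10 unscaled CPM and 6 lay below 5, with no tumor between. That split depends on the rows chosen. With every globin row counted, 13.1.1 held 131 unscaled CPM, 7.2.1 held 70.7 and 9.2 held 5.18. For hbaa1 and the HBE1 rows the intervals of 4.3.1 and 8.4.1.1.1 overlapped (17.2 to 20.9 and 14.5 to 19.1). With a limit of 3 counts, a count of 0 allows up to 0.259 unscaled CPM in 14.1.1.1 and up to 0.147 in 15.2. The Wilson 95% intervals used for the other tumors reach higher, to 0.332 and 0.188. Of 3692 such globin counts in all tumors, 40.6% came from 13.1.1 and 23.3% from 12.2. These intervals and limits cover counting error only, and in bulk RNA fewer red cells and less globin RNA per cell cannot be told apart. Reads of near-identical globin copies may also be lost in the authors' counting, so the true share of globin RNA may be higher than these values.

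The alpha globin gene hbaa1 was present in 9 tumors, and the paired libraries of a tumor differed far less than the tumors did. In CPM of totals scaled by TMM factors, which is what CPM means from here on, the A and B libraries held 28.0 and 20.5 in 13.1.1, 9.99 and 9.35 in 2.1, 4.69 and 3.54 in 4.3.1, 0.596 and 0.259 in 7.2.1, and 0.064 and 0.116 in 8.3, while 8.4.1.1.1 held 3.64 in its 1 library and 14.1.1.1 and 15.2 held 0. Among low tumors the A and B libraries held 13.3 and 18.8 CPM in 12.2, 0.627 and 0.554 in 9.2, and 0.233 and 0.427 in 10.2. High tumors lay on both sides of each low tumor, so the groups overlapped throughout. The counts behind the lowest values were few, with 1 and 2 reads in the libraries of 8.3, 7 and 3 in those of 7.2.1, and 4 and 6 in those of 10.2, against 267 and 220 in 13.1.1. On the log2 scale hbaa1 varied between tumors with an SD of 2.66 and within tumors, over their library pairs, with an SD of 0.310.

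The largest HBE1 row put the tumors in the same order as hbaa1, and the smaller rows did not keep it in full. The largest, ENSDARG00000089087, held 49.4 and 33.4 CPM in the libraries of high tumor 13.1.1, 0 in both libraries of 15.2 and in that of 14.1.1.1, and had a median of 6.32 CPM over the 8 high tumors. In low tumors its levels were 24.7 and 43.8 CPM in the libraries of 12.2, 2.02 and 1.52 in those of 9.2, and 0.873 and 0.854 in those of 10.2. A second row, ENSDARG00000097238, reached 8.56 CPM in 13.1.1 and 5.78 CPM in 12.2 but was higher in 8.4.1.1.1 (2.23 CPM) than in 4.3.1 (1.81 CPM). Another, ENSDARG00000069734, held 22 of its 33 counts in 2.1 and 9 in 12.2, and none in 13.1.1. The other 2 rows had 1 count and none. ENSDARG00000079078, listed as si:ch211-5k11.8 and known in RefSeq's gene table under the older alpha globin name hbaa1.2, held 55.4 CPM in 13.1.1 and 48.0 CPM in 12.2, and 2 counts or fewer in 14.1.1.1 and 15.2.

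Within the counts of these globin rows the mixture of rows varied far less than their total. Taking hbaa1, the HBE1 rows and the hbaa1.2 row together, hbaa1 made up 18.2% of these counts in 13.1.1 (Wilson 95% interval 16.8 to 19.8), 18.0% in 2.1, 12.9% in 4.3.1, 11.3% in 8.4.1.1.1 (8.44 to 14.9) and 15.2% in low tumor 12.2 (13.5 to 16.97). The intervals of 13.1.1 and 8.4.1.1.1 did not overlap. Over the 9 tumors with more than 2 such counts the share of hbaa1 was 9.09% to 18.2%, that of the largest HBE1 row 30.5% to 38.2%, and that of the hbaa1.2 row 42.0% to 47.5%. These are shares of counts, with no correction for length, and near-identical globin copies may share or lose reads in the authors' counting. The split between rows and their total are therefore uncertain.

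**Figure D1:**
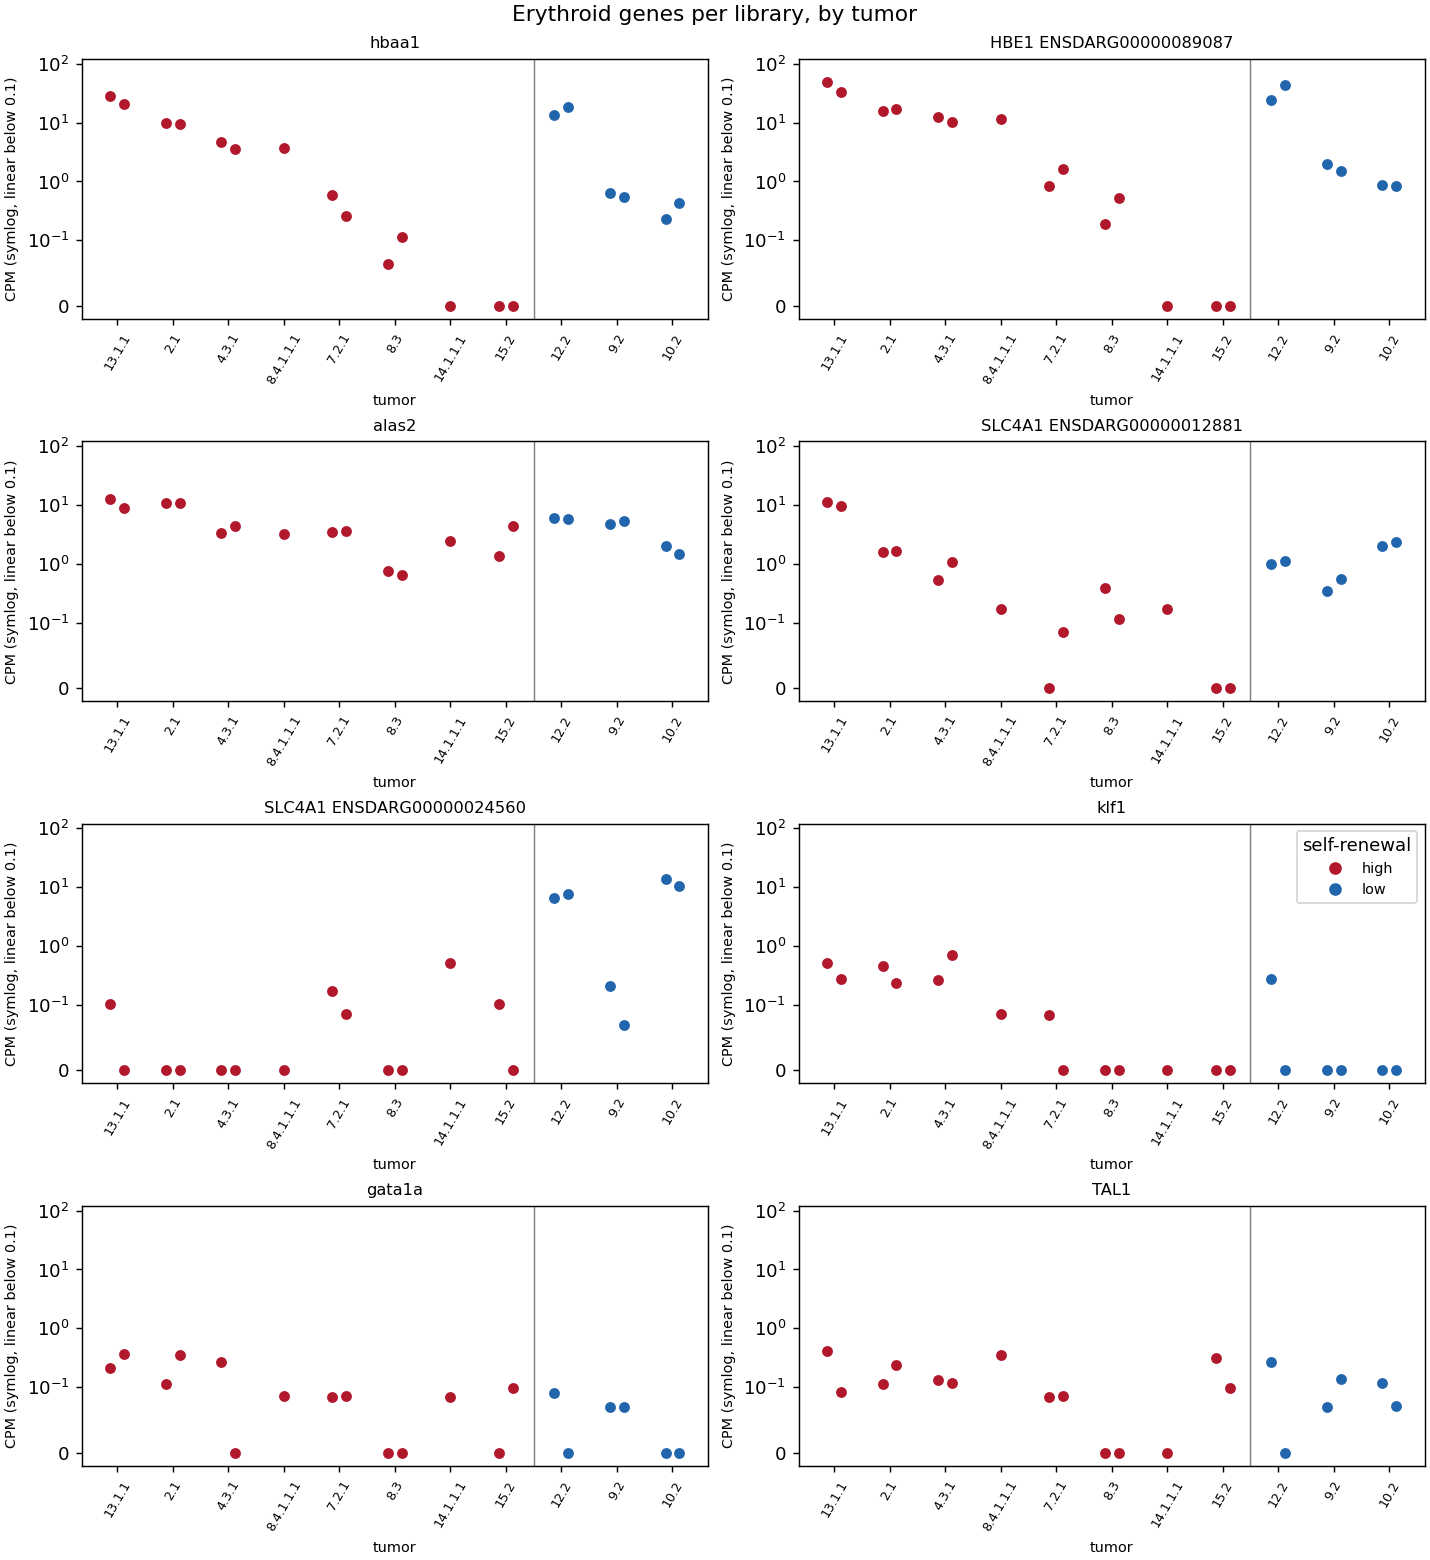
Level of each erythroid row in every library (y axis, CPM, logarithmic above 0.1 and linear below) by tumor (x axis, sorted by globin level within the group), with high tumors in red to the left of the line and low tumors in blue to the right. Each point is 1 library: hbaa1 reached 28.0 CPM in 13.1.1 and 0 in 14.1.1.1 and 15.2, alas2 was above 0 in every library, and klf1, gata1a and TAL1 stayed below 1 CPM.

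Alas2, the heme enzyme, was detected in all 20 libraries and varied less than globin. Its level over the 8 high tumors had a lowest value of 0.730 CPM in 8.3, a median of 3.35 and a highest value of 10.6 CPM in 2.1. Low tumors 9.2, 10.2 and 12.2 held 5.16, 1.77 and 5.96 CPM. The highest levels were those of 2.1 and 13.1.1, the groups overlapped, and the highest tumor stood 14.6 times above the lowest. The SD on the log2 scale was 1.07 between tumors and 0.423 within them. Tumors 14.1.1.1 and 15.2, which held no hbaa1 or HBE1 count, still held 29 and 58 counts of alas2, or 2.46 and 2.87 CPM.

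The library pairs of alas2 were furthest apart in 15.2, where 13 counts (1.33 CPM) and 45 counts (4.44 CPM) gave an exact two-sided binomial p adjusted over 17 library comparisons of 0.000943. In 13.1.1 the libraries held 12.8 and 8.94 CPM of alas2 (adjusted exact p = 0.0416) and 28.0 and 20.5 CPM of hbaa1 (adjusted exact p = 0.00552). In 12.2 they held 13.3 and 18.8 CPM of hbaa1 (adjusted exact p = 0.0416). The other 13 comparisons had adjusted p-values of 0.628 or more by the same exact test, which compares 2 libraries and covers counting error only. Over all genes every library pair differed beyond counting error. Chi-square per degree of freedom was 7.83 in 15.2, 13.1 in 13.1.1 and 31.3 in 12.2. It was 11.3 in 4.3.1, where the adjusted exact p was 0.628 for both hbaa1 and alas2.

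The 2 SLC4A1 rows had different patterns. ENSDARG00000012881 held 11.3 and 9.50 CPM in the libraries of high tumor 13.1.1 and 1.61 CPM or less in the other 7 high tumors, with a median of 0.213 over the 8 and a lowest value of 0 in 15.2. Low tumors 9.2, 10.2 and 12.2 held 0.463, 2.16 and 1.04 CPM, within the range of the high tumors. The other row, ENSDARG00000024560, held 13.8 and 10.7 CPM in the libraries of low tumor 10.2 and 6.44 and 7.54 CPM in those of 12.2. It had 11 counts in all in the 8 high tumors, against 503 in the 3 low tumors. Low tumor 9.2, with 4 counts and 0.142 CPM, lay below high tumor 14.1.1.1, with 6 counts and 0.510 CPM, so the groups overlapped. No source used here says which of these rows is slc4a1a.

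The 3 transcription factor members were close to the lower limit of detection. Over all 20 libraries klf1 had 29 counts, gata1a 22 and TAL1 30, and no library held more than 6 counts of any of them. Klf1 had 10 counts in 4.3.1, 8 in 13.1.1, 6 in 2.1, 3 in 12.2, 1 each in 8.4.1.1.1 and 7.2.1 and none in the other 5 tumors. All 5 tumors above 10 unscaled CPM of globin were therefore among the 6 with a klf1 count. Gata1a ranged from 0 to 0.284 CPM (13.1.1) over high tumors and from 0 to 0.0712 CPM over low tumors, and TAL1 from 0 to 0.343 CPM (8.4.1.1.1) over high tumors and from 0.0966 to 0.184 CPM over low tumors.

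No difference between high and low tumors was found for the members tested. Of the 5 matched members, hbaa1 and alas2 passed the filter on low counts, and gata1a, klf1 and TAL1 did not. Hbaa1 averaged 5.13 ± 7.96 CPM in high tumors and 5.41 ± 8.57 CPM in low tumors (SD, n = 8 and n = 3), a log2 fold change, high over low, of −0.07 ± 1.72 (SE) with an adjusted p of 0.988 by the quasi-likelihood test of edgeR (Benjamini-Hochberg). Alas2 averaged 4.68 ± 3.69 CPM in high tumors and 4.30 ± 2.22 CPM in low tumors, a log2 fold change of 0.13 ± 0.70 with an edgeR adjusted p of 0.941. The count called by edgeR was thus 0 of 2, with neither below 0.05 before adjustment, and limma-voom and DESeq2 also called 0. Over all 16008 genes tested 9.20% were called, 4.0% higher and 5.20% lower.

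The width of these estimates is part of the result. The approximate 95% interval of the log2 fold change, from its SE, was −3.45 to 3.31 for hbaa1 and −1.25 to 1.499 for alas2. The hbaa1 value turned on single tumors: it was 3.50 without low tumor 12.2 and −1.06 without high tumor 13.1.1, and none of the fits that left out 1 tumor called it. The largest HBE1 row behaved alike, at −0.17 ± 1.64 with all tumors (edgeR adjusted p = 0.965), 2.95 without 12.2 and −0.95 without 13.1.1. Tumor 12.2 also stood apart from the other low tumors in the T-cell and B-cell genes given above.

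The SLC4A1 rows differed in this comparison. ENSDARG00000012881 averaged 1.61 ± 3.40 CPM in high tumors and 1.22 ± 0.861 CPM in low tumors, a log2 fold change of 0.40 ± 1.52 (edgeR adjusted p = 0.910) that was −1.50 without 13.1.1. ENSDARG00000024560 averaged 0.0918 ± 0.175 CPM in high tumors and 6.49 ± 6.17 CPM in low tumors, and fell by 6.24 ± 1.27 on the log2 scale (edgeR adjusted p = 0.0112). The call was lost without low tumor 10.2, where the log2 fold change was −5.33 and the edgeR adjusted p 0.0627, and with limma-voom (−5.25, adjusted p = 0.0592), and without 14.1.1.1 the row did not pass the filter.

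**Figure D2:**
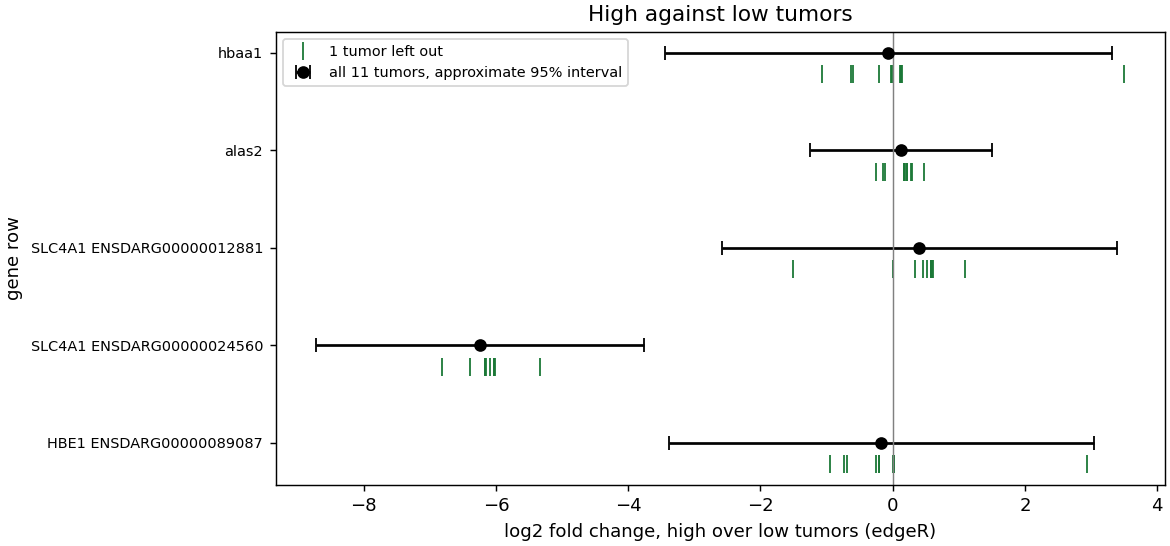
Log2 fold change, high over low tumors (x axis), of the erythroid rows that passed the filter (y axis), with all 11 tumors as black points and bars for the approximate 95% interval, and the values with 1 tumor left out as green ticks. The hbaa1 estimate is −0.07 with all tumors and 3.50 without 12.2, and ENSDARG00000024560 lies below 0 in every fit shown.

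The transcription factors were compared by pooled counts, with exact 95% intervals for counting error only and no test over tumors. Klf1 had 26 counts in high tumors and 3 in low tumors, a ratio of unscaled CPM of 3.86 (1.18 to 19.9). Gata1a had 19 and 3 counts in high and low tumors, a ratio of 2.82 (0.830 to 14.9). TAL1 had 21 and 9, a ratio of 1.04 (0.456 to 2.58). Of the 26 klf1 counts in high tumors, 24 came from 4.3.1, 13.1.1 and 2.1, so this ratio does not stand for the 8 tumors alike.

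The members were next set against the globin level of each tumor, the log2 CPM of hbaa1 and the HBE1 rows summed, which ran from −3.42 to 6.15. The value −3.42, in 14.1.1.1 and 15.2, stands for a count of 0 and is set by the prior count of 2. How far both tumors lie from the others therefore depends on that setting. Permutation tests over 11 tumors were two-sided, with p-values adjusted over 7 relations. Hbaa1, set against the HBE1 rows alone, had a Pearson r of 0.98 and a Spearman rho of 0.99, both with a permutation p of 1e-05, the smallest the permutations can give, and an adjusted p of 7e-05. Klf1 had r = 0.84 (permutation p = 0.00192, adjusted 0.00672) and rho = 0.86 (permutation p = 0.00151, adjusted 0.00406). Alas2 had r = 0.67 (permutation p = 0.0227, adjusted 0.0398) and rho = 0.85 (permutation p = 0.00174, adjusted 0.00406).

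SLC4A1 ENSDARG00000012881 also rose with globin, with r = 0.68 (permutation p = 0.0214, adjusted 0.0398) and rho = 0.70 (permutation p = 0.0193, adjusted 0.0337). TAL1 had r = 0.62 (permutation p = 0.0404, adjusted 0.0566) and rho = 0.58 (permutation p = 0.0661, adjusted 0.0771). Gata1a had r = 0.60 (permutation p = 0.0559, adjusted 0.0652) and rho = 0.66 (permutation p = 0.0317, adjusted 0.0444). SLC4A1 ENSDARG00000024560 had r = −0.03 (permutation p = 0.932, adjusted 0.932) and rho = −0.22 (permutation p = 0.501, adjusted 0.501). Its highest levels stood in 10.2, a tumor of low globin, and in 12.2, one of high globin.

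How far each relation held depended on the tumors. Without 14.1.1.1 and 15.2, the tumors farthest from the median globin level, r was 0.995 for hbaa1, 0.87 for klf1, 0.82 for alas2, 0.81 for TAL1, 0.79 for gata1a, −0.08 for SLC4A1 ENSDARG00000024560 and 0.53 for SLC4A1 ENSDARG00000012881. The last of these no longer passed (permutation adjusted p = 0.162), while those of TAL1 and gata1a, which did not pass by Pearson's r over all tumors, passed here (permutation adjusted p = 0.0103 for TAL1 and 0.0198 for gata1a). Within the 8 high tumors r was 0.98 for hbaa1, 0.89 for klf1, 0.66 for alas2 (exact permutation adjusted p = 0.105), 0.76 for SLC4A1 ENSDARG00000012881 (exact permutation adjusted p = 0.0520), 0.74 for gata1a, 0.61 for TAL1 and −0.59 for SLC4A1 ENSDARG00000024560, and of these only hbaa1 and klf1 passed. With 1 tumor left out, r was 0.59 to 0.72 for alas2 and 0.58 to 0.76 for SLC4A1 ENSDARG00000012881, and each lost its call in 8 of 11 such fits. Alas2 also lost it with a prior count of 0.5 (r = 0.61, permutation adjusted p = 0.0655). The 3 low tumors are too few for a value of their own.

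The globin levels had wide gaps, of 2.62 on the log2 scale between 9.2 and 8.4.1.1.1 and of 2.83 between the tumors without an hbaa1 or HBE1 count and 8.3. The size of the gap of 2.83 depends on the prior count, which sets the level of a count of 0. Within the 6 tumors below 5 unscaled CPM of globin, a split made after the values were seen, hbaa1 kept r = 0.98 (exact permutation adjusted p = 0.0194). The split was made on the same counts, and 14.1.1.1 and 15.2 held 0 for both hbaa1 and the HBE1 rows. This p-value is therefore a description only. In the same 6 tumors r was 0.18 for alas2, 0.39 for klf1, 0.13 for TAL1, −0.14 for gata1a and 0.48 for SLC4A1 ENSDARG00000012881, all with an exact permutation adjusted p of 0.828. Apart from that of hbaa1, no relation was thus detectable among these 6 tumors, where klf1 had 1 count in all. They are poor in hbaa1 and the HBE1 rows, and 7.2.1 among them held 70.7 unscaled CPM when every globin row is counted.

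**Figure D3:**
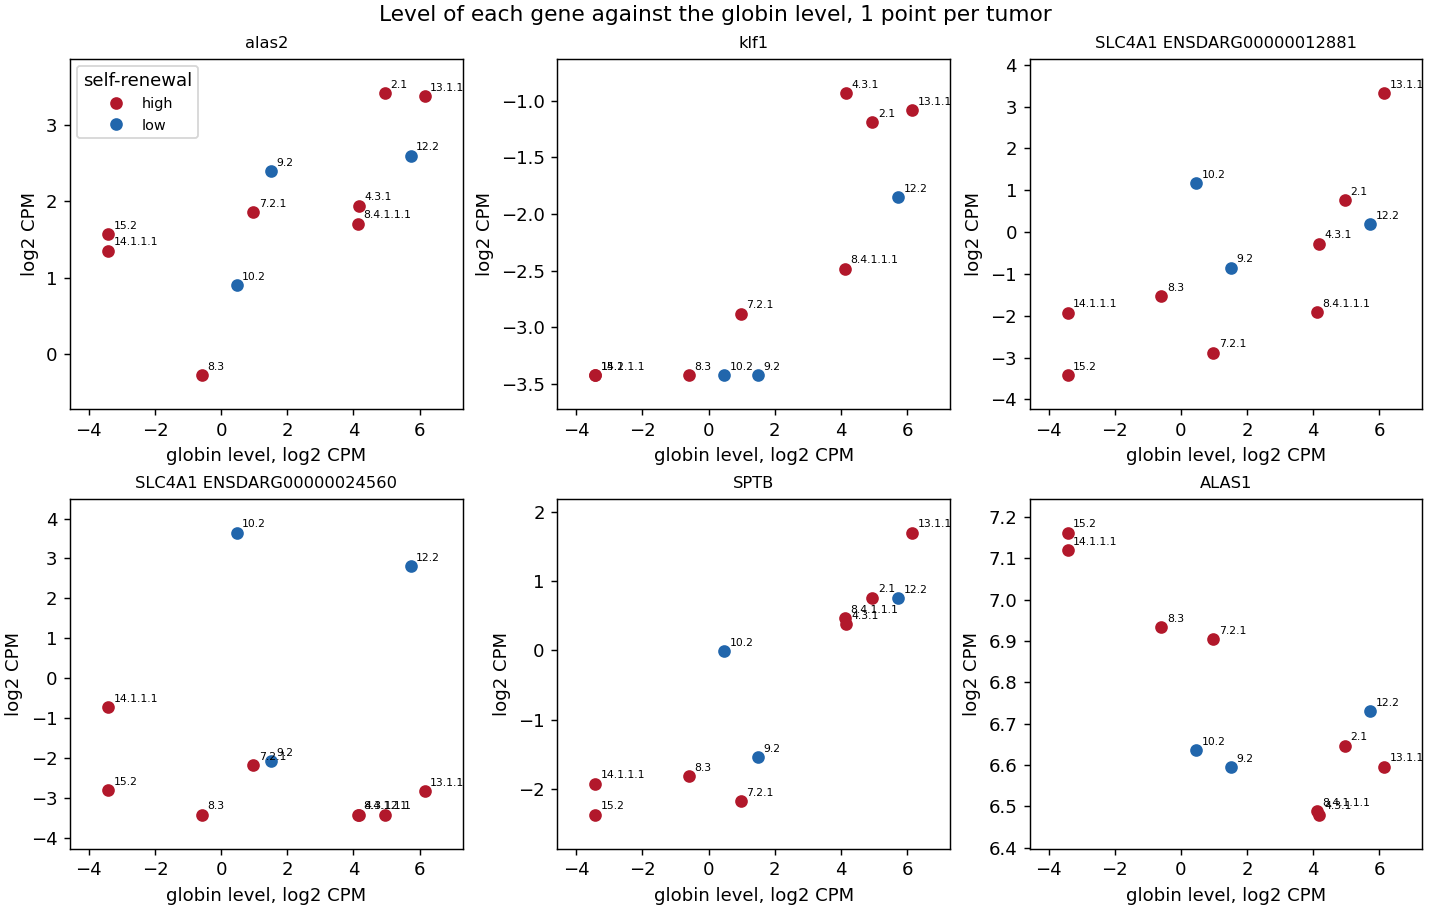
Log2 CPM of 6 gene rows (y axes) against the globin level, the log2 CPM of hbaa1 and the HBE1 rows summed (x axes), with 1 labelled point per tumor, high tumors in red and low tumors in blue. SPTB was higher in each of the 5 tumors above 10 unscaled CPM of globin than in the other 6. Klf1 was too, but 8.4.1.1.1 and 7.2.1, on either side of that split, each held 1 count and differed only by their totals. Alas2 had its 3 highest values in 3 of those 5, and SLC4A1 ENSDARG00000024560 was high in 10.2 and 12.2 alone. ALAS1 had its highest values in 15.2 and 14.1.1.1, which held no count of hbaa1 or the HBE1 rows.

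Genes whose pattern was most like the globin level were named by their Pearson r over the 11 tumors, among 14852 genes ranked and as a description without a test. The hbaa1.2 row came first with r = 0.99. The next were si:ch211-250g4.3 (0.91), si:ch211-227n13.3 (0.89), SPTB (0.89), ARHGEF18 (0.88), si:ch211-114c17.1 (0.88) and KCNIP2 (0.87), followed by add2, hif1al2, lcmt2, si:dkey-115f9.1 and ZNF236, each at 0.86. Some of them were near the lower limit of detection: KCNIP2, add2, si:dkey-115f9.1 and hif1al2 reached at most 0.804, 0.819, 1.47 and 1.51 CPM. Others varied little, such as lcmt2, from 11.5 to 18.1 CPM, and si:ch211-227n13.3, from 3.91 to 8.42 CPM. Of these 12, 3 are on the erythroid lists: the hbaa1.2 row, SPTB and add2. SPTB, the beta spectrin of the red cell skeleton, held 3.17 CPM in 13.1.1 and 1.60 CPM in 12.2, against 0.0991 CPM in 15.2 and 0.128 CPM in 7.2.1.

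Most genes of the erythroid lists did not stand near the top of this order, which left out the members and the HBE1 and SLC4A1 rows. Of their 59 genes ranked, 30 had an r above 0 (50.8%, against 49.98% of all genes ranked), with a median of 0.01. By rank 167 of the 14852 genes ranked r had fallen to 0.68, so an r of 0.7 or more was rare over all genes. In the lists 7 of the 59 reached 0.7, a larger share than over all genes. That share is a description only, since the lists were compiled with results of these data known and the hbaa1.2 row is itself a globin row. Of these 7, the hbaa1.2 row, SPTB and add2 are named above, and the other 4 follow. One ANK1 row, ENSDARG00000059093, an ankyrin that ties spectrin to the membrane, stood at rank 14 (r = 0.85), cahz, a carbonic anhydrase of fish red cells, at rank 24 (0.82), RHAG, a membrane channel of red cells, at rank 72 (0.74) and epb41b, a protein 4.1, at rank 84 (0.73). Cahz reached 9.04 CPM in 13.1.1, with 2.07, 1.81 and 1.78 CPM in 2.1, 4.3.1 and 12.2 and at most 0.343 CPM elsewhere. ALAS1, the form of the heme enzyme that most tissues use, had the lowest r of the 59, −0.82 at rank 14836, with 143 and 139 CPM in 15.2 and 14.1.1.1 and 89.1 to 122 CPM in the other tumors. The globin level of 15.2 and 14.1.1.1 is set by the prior count. Neither this r nor the order of genes is given without these tumors.

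Across wider lists of erythroid genes, 65 of 92 rows were tested between high and low tumors, and 2 were higher and 4 lower in high tumors (9.23%, against 9.20% of all genes). DESeq2 called 6 higher and 9 lower. The share over all genes is given for edgeR only, so calls by the other tools have no background beside them here. The median log2 fold change of the 65 was 0.16, beside 0.04 over all genes. The lists were compiled with results of these data known.

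In the globin list 0 of 4 tested rows were called, with a median of −0.12, no unadjusted p under 0.05 and no call by DESeq2. In the heme synthesis list edgeR called 0 of 11, with a median of −0.13 and 2 unadjusted p-values under 0.05, and DESeq2 called 1 higher and 1 lower. CPOX, a late enzyme of the pathway, stood at 20.8 ± 7.57 CPM in high tumors and 10.03 ± 2.30 CPM in low tumors (log2 fold change 1.05 ± 0.37, edgeR adjusted p = 0.105). In the membrane and cytoskeleton list, SLC4A1 ENSDARG00000024560 was the 1 row called among 11, and the median was 0.32.

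Iron genes had 1 row in each direction among 10, with a median of −0.55. Slc11a2, the carrier that moves iron out of endosomes, averaged 64.3 ± 9.23 CPM in high tumors and 117 ± 9.35 CPM in low tumors and fell by 0.86 ± 0.16 on the log2 scale (edgeR adjusted p = 0.00731). TFR2, a second transferrin receptor, averaged 19.4 ± 16.2 CPM in high tumors and 0.819 ± 1.101 CPM in low tumors and rose by 4.62 ± 1.06 (edgeR adjusted p = 0.0203), a call lost without 9.2 or without 10.2. In both genes the groups did not overlap, and their Pearson r with the globin level was 0.12 for slc11a2 and 0.15 for TFR2, whose highest value, 55.5 CPM, stood in 7.2.1.

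Among erythroid transcription factors 1 of 11 was called. LMO2, a partner of tal1 that is also used in other blood lineages, fell by 3.83 ± 0.71 on the log2 scale, with 1.34 ± 1.07 CPM in high tumors and 19.3 ± 9.97 CPM in low tumors (edgeR adjusted p = 0.00688), and the list's median was 0.97. Among the erythropoietin receptor and other red cell genes, 1 of 18 was higher and 1 lower, with a median of 0.37. SELENBP1, which encodes a selenium-binding protein, averaged 1.56 ± 0.600 CPM in high tumors and 21.97 ± 7.16 CPM in low tumors and fell by 3.82 ± 0.37 (edgeR adjusted p = 0.000151). Gpx1a, a glutathione peroxidase, rose by 1.49 ± 0.41 (edgeR adjusted p = 0.0437), a call lost when any of 8 tumors was left out (all but 4.3.1, 8.3 and 7.2.1) and with limma-voom (adjusted p = 0.0552).

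Markers of other cell types were set beside globin. Summed thrombocyte markers stood at 4.70 to 38.6 CPM in high tumors, highest in 13.1.1, and at 1.74 to 3.70 CPM in low tumors. Of the 6 tested rows 1 was higher, beside 4.0% of all genes tested. That row, FLI1, averaged 8.06 ± 7.40 CPM in high tumors and 0.296 ± 0.0660 CPM in low tumors (edgeR adjusted p = 0.0303, a call lost without any 1 of the low tumors and with limma-voom, adjusted p = 0.188). The thrombocyte sum includes FLI1, and no sum without it is given here. The defining genes of thrombocytes, itga2b and mpl, reached at most 0.473 and 0.198 CPM in any tumor. Summed neutrophil and macrophage markers stood at 123 to 1713 CPM in high tumors and 166 to 492 CPM in low tumors, and without CEBPB, which alone held 1656 CPM in 8.3, at 37.1 to 305 CPM in high tumors and 114 to 267 CPM in low tumors. The median log2 fold change of this list was 1.64. Of its 16 tested rows edgeR called 0 higher, while DESeq2 called 2 higher and 2 lower, and the 1 row called lower by edgeR was NCF1, at 6.81 ± 5.24 CPM in high tumors and 89.3 ± 58.8 CPM in low tumors (edgeR adjusted p = 0.00707). Of the T-cell markers 4 of 15 tested rows were higher and none lower (13 higher with DESeq2 and 12 with limma-voom), among them GATA3, with 263 ± 133 CPM in high tumors and 8.65 ± 11.7 CPM in low tumors (edgeR adjusted p = 0.0114). Of the B-cell markers 10 of 13 were lower and none higher (10 lower with DESeq2 and 7 with limma-voom), among them PAX5, with 0.145 ± 0.168 CPM in high tumors and 141 ± 32.7 CPM in low tumors (edgeR adjusted p = 6.84e-06). Kidney and endothelial markers had 0 of 3 tested rows called by edgeR, none with an unadjusted p under 0.05, and 0 called by DESeq2. The part of these cells in the erythroid values was not tested.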

How the data were processed

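The authors deposited raw counts per gene, 1 column per library. Their tools were STAR, Picard and featureCounts, on build GRCz10, per the submitters' processing notes; versions, strand and multi-mapping settings have no source here, so reads of overlapping genes and near-identical copies are uncertain. Symbols came from a table pairing identifiers with names (81.8% of identifiers), and older names from RefSeq's table of assembly GRCz12tu.

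The unit of replication was the tumor, with libraries summed. No library pair agreed within sampling noise (chi-square per degree of freedom 1.31 to 31.3 over genes with at least 10 counts). Counts were tested with edgeR 4.0.16 in R 4.3.3 (filterByExpr at its minimum count of 10, TMM, glmQLFit, glmQLFTest, two-sided), Benjamini-Hochberg adjustment over 16008 genes and a threshold of 0.05. DESeq2 1.42.0, limma 3.58.1 (voom), other scalings and filters, libraries as units and leaving out each tumor were alternatives. Log2 CPM used a prior count of 2. Relations used 100000 permutations, or all orders within 8 or 6 tumors. Fits were also tested on simulated data. Python 3.11.15, scipy 1.17.1, pandas 2.3.3 and matplotlib 3.10.9 were used otherwise.

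The plan took the globin level from hbaa1, hbba1 and hbba2. Because hbba1 and hbba2 matched no identifier, the 5 HBE1 rows were summed with hbaa1 instead, and relations of the globin level stand on that sum.

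Named genes are every member, up to 4 called genes of each list and direction by smallest p (or the 2 smallest where none was called), and the 12 genes most like the globin level. Of the T-cell and B-cell genes so chosen, 1 each is printed, and 1 heme synthesis gene that the rule gives is not reported here. The hbaa1.2 row, hbae5, cahz, RHAG, epb41b, ANK1, ALAS1, itga2b, mpl, CEBPB, RAG1, RAG2, lck, cd8b, ighm, blnk, grna.1, marco and the MPEG1 row were chosen after their values were seen. The members and lists were chosen with earlier results of these data known.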

Additional observations from a re-analysis of the deposited data

Results flagged for a closer look

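A gap test within the 8 high tumors, applied to log2 CPM of 12 rows, set 3 tumors apart from the other 7. Its usual rate of about 1 flag by chance in 20 groups need not hold here. Many high tumors shared the value of a count of 0: 4 of 8 for SLC4A1 ENSDARG00000024560, 6 for HBE1 ENSDARG00000069734 and 5 for hbae5. SLC4A1 ENSDARG00000024560 was high in 14.1.1.1 for a high tumor, at −0.73, on 6 counts. HBE1 ENSDARG00000069734 was high in 2.1, at 0.44, on 15 and 7 counts in its libraries. Hbae5 (ENSDARG00000045142), an embryonic-type alpha globin, was high in 7.2.1, at 6.09, with 790 and 809 counts in its libraries and 2 counts in all other tumors together.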

How the results depend on the processing

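No alternative called hbaa1 or alas2 between high and low tumors. The hbaa1 log2 fold change was 0.019 with the stricter filter, 0.049 with libraries as units, 0.063 with libraries as units and the replicate block, and −1.06 to 3.50 with 1 tumor left out. That of alas2 was −0.090 with limma-voom, −0.31 with voom and tumor as block, and −0.26 to 0.48 with 1 tumor left out; that of SLC4A1 ENSDARG00000012881 was −1.57, −1.55 and −1.50 to 1.095 in the same settings, and that of the largest HBE1 row −0.95 to 2.95 with 1 tumor left out. Erythroid rows called higher numbered 1 with upper-quartile scaling, no filter or the stricter filter, 6 with DESeq2, 11 with libraries as units, 9 with the replicate block, 8 with voom and tumor as block, and 0 to 3 with 1 tumor left out. Rows called lower numbered 9 with DESeq2, 10 with libraries as units, 10 with the replicate block, 8 with voom and tumor as block, and 3 to 9 with 1 tumor left out (9 without 8.3). Shares over all genes are not given for these fits, so their counts cannot be set against a background. Replicate numbers mark the libraries of a tumor, and the labels do not say that they pair libraries across tumors. Deviations of library 1 correlated between tumors at −0.277 to 0.271 (median −0.00895), with 6 of 36 above 0.1. Whether some libraries of different tumors shared a batch was not tested. Globin in 13.1.1 was 94.6 unscaled CPM without the 50 most abundant genes in the total and 131.4 over all globin rows. Relations to globin: alas2 had r = 0.61 with a prior count of 0.5 (call lost), 0.66 within high tumors, 0.18 within the 6 tumors below 5 unscaled CPM, and 0.59 to 0.72 with 1 tumor left out. Its r was 0.81 with 1 library per tumor and 0.75 with hbaa1 alone, with the call kept in both. Gata1a had 0.66 by ranks, 0.79 without the 2 farthest tumors, 0.71 with 1 library per tumor, 0.68 with hbaa1 alone, −0.14 in the 6, and 0.48 to 0.69. Klf1 had 0.39 in the 6. TAL1 had 0.81 without the 2 farthest, 0.66 with hbaa1 alone, and 0.47 to 0.88. SLC4A1 ENSDARG00000012881 had 0.76 within high tumors, 0.53 without the 2 farthest, 0.48 in the 6, and 0.58 to 0.76; the other SLC4A1 row had 0.17 in the 6 and −0.32 to 0.089. The values in the 6 and with hbaa1 alone were chosen after seeing the data. The causes of these changes were not tested. Depth limits klf1, gata1a and TAL1, with at most 6 counts in a library.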

Other observations

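The embryonic-type alpha globin gene hbae5 was found almost entirely in high tumor 7.2.1. There it held 67.3 and 69.9 CPM in the A and B libraries, 99.9% of its counts in the series, while hbaa1 held 0.426 CPM in that tumor. Counting every globin row, 7.2.1 held 70.7 unscaled CPM, against 1.85 for hbaa1 and the HBE1 rows. Of the other embryonic alpha globin rows, hbae4 had 15 counts in all, 5 of them in 7.2.1, hbae3 had 2 counts, and hbae1.1, hbae1.2 and hbae1.3 had none, and alas2 in 7.2.1 stood at 3.53 CPM, inside the range of the other high tumors.

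Macrophage genes and globin did not share an order. The granulin gene grna.1 held 104 CPM and the scavenger receptor gene marco 34.4 CPM in high tumor 15.2, which had no hbaa1 or HBE1 count. The same genes held 43.0 and 32.1 CPM in 13.1.1, the tumor with the most globin, and 4.42 and 4.30 CPM in low tumor 12.2, the next in globin. MPEG1 ENSDARG00000055290, a perforin of macrophages, had its highest level, 34.1 CPM, in 15.2.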
